A study of Mus musculus with 8 samples.

Results

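The genes of glycolysis, lactate production and the pentose phosphate pathway were taken by name from a table of TPM (a share of all transcripts, corrected for gene length) measured in 8 mouse tumors. All 33 names had a row, and Aldoa had a second row under another identifier, so 34 of the 35539 rows of the table are described here, by step and by isoform. The tumors grew under the skin of immunocompetent female C57BL/6J mice, which by the methods were bought at a single age. They grew from 105K cells, a single Tsc2-null line that the methods of the study trace to a mouse kidney cystadenoma, while the labels give the tissue as mammary tumor. Every tumor carried this line, so no tumor with intact Tsc2 stands beside them. Each of 4 treatments is represented by 2 tumors: rapamycin, an inhibitor of mTOR complex 1, at 0.25 mg/kg/day together with loratadine, an antagonist of the histamine receptor HRH1, at 25 mg/kg/day (A3L and C1R), rapamycin alone (D1L and G3L), loratadine alone (B3R and F3R), and the vehicle carboxymethylcellulose (B1L and F5L). Rapamycin was injected, and loratadine was oral by the methods and intraperitoneal by the labels. By the methods the schedules differed too: rapamycin was given on consecutive days with rest days between, and loratadine every other day. The sources used here give no key to the tumor codes.

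Glycolysis splits glucose into pyruvate. Hexokinase traps glucose after its import, phosphofructokinase commits it, and the lower steps from Gapdh to pyruvate kinase yield ATP and NADH. Lactate dehydrogenase turns pyruvate into lactate and regenerates NAD+, and the monocarboxylate carriers move lactate across the membrane. The pentose phosphate pathway branches off at glucose 6-phosphate: its oxidative arm makes NADPH and its non-oxidative arm rearranges sugars to make ribose 5-phosphate. Cells that lack the TSC complex keep mTOR complex 1 active, and this kinase is known to raise the transcription of glycolytic genes, in part through HIF-1 alpha, which binds DNA at the core letters ACGTG or GCGTG.

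Start regions of 4 members are shown, because they are the members with a single annotated start that had the 3 largest falls with rapamycin (Slc2a1, Pgk1 and Gapdh) and the highest estimate (Ldhb). The sequences are from RefSeq on GRCm38.p6, run 5′ to 3′ on the strand of the gene, and hold 250 bases before the start and 50 after it. Capitals mark each ACGTG on either strand, which reads CACGT on the other strand.
Slc2a1 (chr4:119108495-119108794, plus strand): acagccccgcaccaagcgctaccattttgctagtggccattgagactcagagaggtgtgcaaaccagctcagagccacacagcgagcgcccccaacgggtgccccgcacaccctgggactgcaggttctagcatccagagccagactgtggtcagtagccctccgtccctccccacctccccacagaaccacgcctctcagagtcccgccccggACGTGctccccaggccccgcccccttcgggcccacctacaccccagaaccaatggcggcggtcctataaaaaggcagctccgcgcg
Pgk1 (chrX:106186850-106187149, plus strand): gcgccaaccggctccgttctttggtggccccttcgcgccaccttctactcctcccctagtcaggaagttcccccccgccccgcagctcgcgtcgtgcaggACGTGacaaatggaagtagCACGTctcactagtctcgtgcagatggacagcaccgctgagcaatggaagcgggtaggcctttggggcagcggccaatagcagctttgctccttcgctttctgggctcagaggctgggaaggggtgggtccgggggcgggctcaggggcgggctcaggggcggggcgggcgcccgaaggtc
Gapdh (chr6:125165724-125166023, minus strand): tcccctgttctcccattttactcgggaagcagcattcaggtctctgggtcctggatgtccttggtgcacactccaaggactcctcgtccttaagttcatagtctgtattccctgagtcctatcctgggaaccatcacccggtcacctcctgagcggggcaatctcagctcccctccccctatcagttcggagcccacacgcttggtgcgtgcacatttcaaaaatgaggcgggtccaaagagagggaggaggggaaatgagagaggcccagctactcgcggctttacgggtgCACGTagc
Ldhb (chr6:142507908-142508207, minus strand): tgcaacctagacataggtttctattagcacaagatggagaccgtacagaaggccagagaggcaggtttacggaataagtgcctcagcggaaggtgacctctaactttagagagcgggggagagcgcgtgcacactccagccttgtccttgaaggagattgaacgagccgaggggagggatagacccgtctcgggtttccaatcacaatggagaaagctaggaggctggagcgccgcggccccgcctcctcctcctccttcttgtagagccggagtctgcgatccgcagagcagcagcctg
Slc2a1 and Gapdh each held 1 ACGTG, Pgk1 held 2 and Ldhb held 0 in this window. The other core, GCGTG, is not marked: Gapdh held 2, Slc2a1 and Ldhb held 1 each, and Pgk1 held 0. Of the 33 names, 32 matched the promoter table, with 46 starts, and Slc2a3 was the one that did not. On both strands, ACGTG stood in 43.5% of the 46 member starts and in 19.6% of all 32851 starts of the same length, GCGTG in 56.5% of member starts and 32.4% of all, and CACGTG, which contains ACGTG, in 8.70% of member starts and 7.15% of all. The median GC content was 60.7% for the member starts and 52.7% for all, and its part in the difference was not tested. By gene, 13 of the 23 members that fell with rapamycin and 4 of the 9 matched members that did not pass held ACGTG. The other core went the other way, with 14 of these 23 and 7 of these 9. Among all 27025 genes the first core stood in 21.8% and the other in 35.2%. Neither split was tested. A match describes letters and not a bound site.

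Each drug was tested over 4 tumors against 4 with limma on log2(TPM + 1), in an additive model of both drugs, with adjustment over the 15095 rows that reached 1 TPM in at least 2 tumors. All 34 member rows passed this filter. Per tumor the TPM of all rows came to 993546 to 994645, of which mitochondrial transcripts made up 4.83 to 7.88%. Depth is unknown, because TPM does not keep it, and errors are those between tumors. Of 8 listed mammary epithelium genes, Csn2 and Wap were at or near 0 in every tumor and Csn3 reached 174 TPM in B1L alone. Among these 8, 4 stayed under 1 TPM in every tumor. The list summed to 174.5 TPM in B1L, 41.6 TPM in F5L and 4.04 to 19.0 TPM in the other tumors. Of the renal tubule genes, Pax8, Pax2 and Cdh16 were at 11.2 TPM or more in all 8 tumors. Umod ranged over 0.0416 to 144 TPM, and Slc12a1, Aqp2, Lrp2 and Cubn reached at most 2.02 TPM. These markers do not settle the tissue. Tsc2 was listed at 42.0 to 78.1 TPM, which checks nothing, because the deleted part is not given and host cells carry the gene. All 3 tumors with a code that ends in R had received loratadine, the vehicle and loratadine tumors have codes that begin with B and F, a pair for each letter, and by the methods treatment with rapamycin began at larger tumors than treatment with single other drugs, so drug, whatever these letters stand for and starting size cannot all be told apart.

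Transcripts of glycolysis took up a smaller share of the transcriptome in every tumor given rapamycin. The 34 rows together held 7265 and 7149.8 TPM with both drugs and 8391 and 8046 TPM with rapamycin alone, against 13499 and 17161 TPM with loratadine alone and 28612 and 22484 TPM with vehicle. As a share of all listed TPM this was 0.731 and 0.719% with both drugs, 0.844 and 0.810% with rapamycin alone, 1.36 and 1.73% with loratadine alone and 2.88 and 2.26% with vehicle. The tumors with rapamycin lay below all tumors without it, and the loratadine tumors lay between them and the vehicle tumors. Gapdh alone, the most abundant member, ranked from 87 to 122 among all genes with rapamycin and from 6 to 26 without it. Without Gapdh the sums were 5979 to 6857 TPM with rapamycin and 10516 to 19088 TPM without it.

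**Figure D1:**
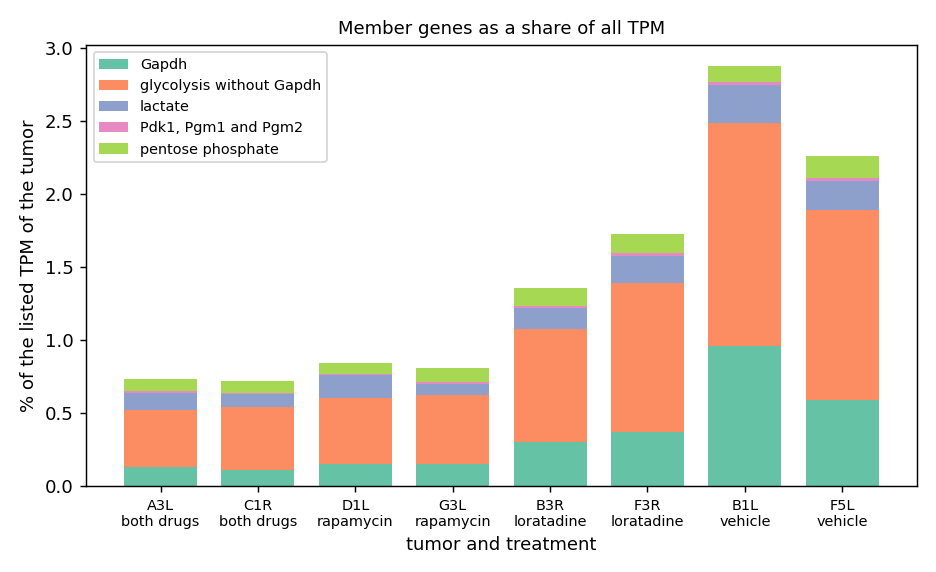
Stacked bars give the member genes as a percent of all listed TPM in each tumor, split into Gapdh, the rest of glycolysis, lactate, Pdk1 with both phosphoglucomutases, and the pentose phosphate pathway. The 4 tumors with rapamycin reach 0.719 to 0.844%, and the 4 without it reach 1.36 to 2.88%.

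With rapamycin 23 of the 34 member rows fell and 0 rose (adjusted p under 0.05 from limma). At an unadjusted p under 0.05, 25 were lower and 0 higher. Over all rows tested, 7.88% were called lower and 12.0% higher. The median log2 fold change of the members was -1.09, against 0.12 for all rows, and the estimates ran from -2.07 for Slc2a1 to 1.73 for Ldhb, with 31 negative and 3 positive. In 21 of the 34 rows every tumor with rapamycin lay below every tumor without it, against 10.5% of all rows. Each block of the pathway held at least 1 row called lower. These were 14 of 20 rows from glucose import to pyruvate, 3 of 4 lactate rows, Pdk1 and 1 of 2 phosphoglucomutases. In the pentose phosphate pathway they were 1 of 3 oxidative and 3 of 4 non-oxidative genes. The oxidative one was Pgd, whose call was lost without any 1 of 6 tumors. Of the 23 calls, 15 stood without each tumor in turn, and the other 8 (Hk1, Hk2, Pfkfb3, Slc16a1, Slc16a3, Pgd, Taldo1 and Rpe) were lost without at least 1 of them. Without both vehicle tumors, which was tried after the data were seen, 0 members and 0 rows in all were called (smallest member adjusted p = 0.21), while all 23 kept a negative estimate and the member median was -0.88.

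**Figure D2:**
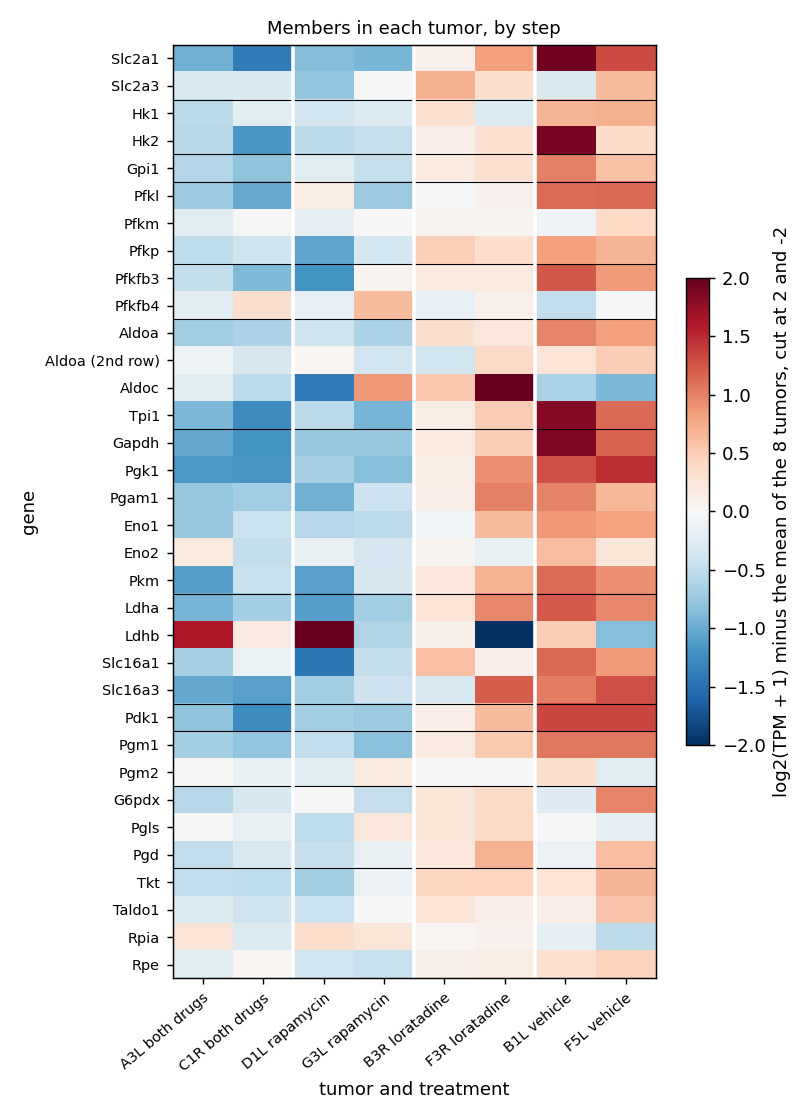
The colour gives log2(TPM + 1) of each member row minus its mean over the 8 tumors, with members in rows by step and tumors in columns by treatment. Most rows are below their mean in all 4 tumors with rapamycin. Ldhb, Aldoc, Pfkfb4, Pgm2 and Rpia are among those that are above it in at least 1 of these 4.

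**Figure D3:**
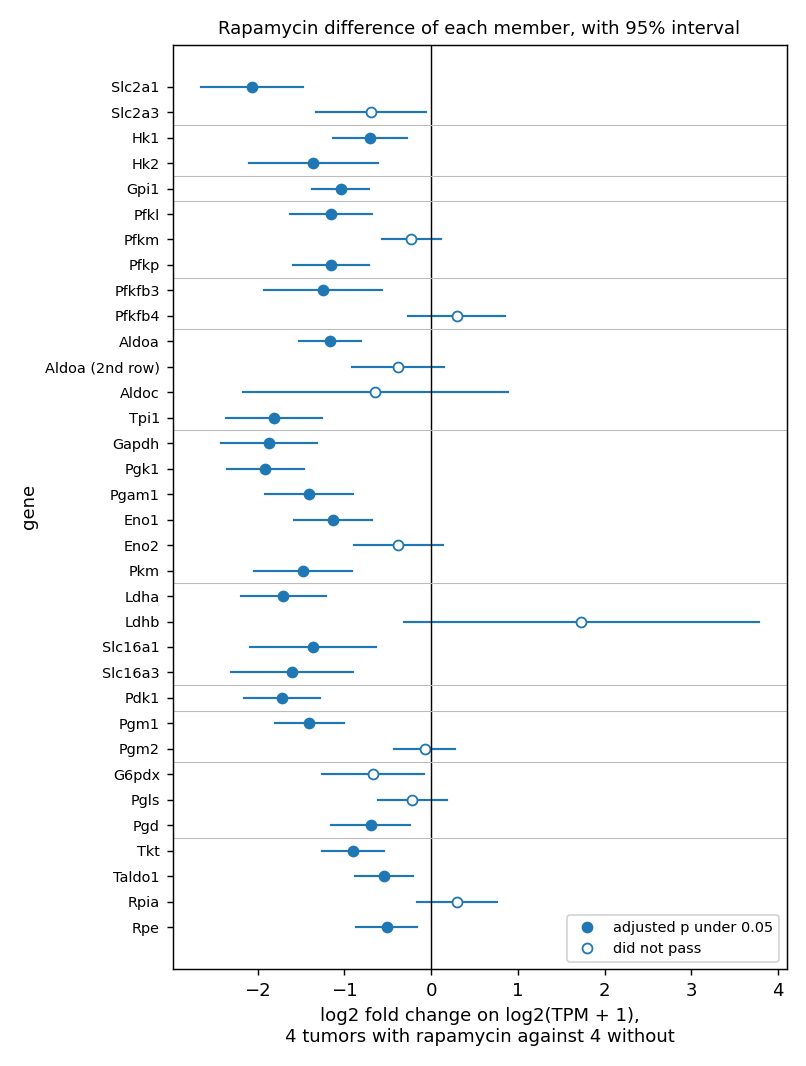
Each point is the log2 fold change of a member for 4 tumors with rapamycin against 4 without it, and each line its 95% interval. Filled points mark the 23 rows with an adjusted p under 0.05, all of them left of 0, and open points mark the 11 that did not pass.

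Glucose import showed the largest fall of all members. Slc2a1 (GLUT1, the basal glucose transporter of most cells, ENSMUSG00000028645, chromosome 4 from 118781316 to 118809935 in mm9) was at 48.2 and 35.3 TPM with both drugs and 51.5 and 50.003 TPM with rapamycin alone, against 101 and 168 TPM with loratadine alone and 363 and 235 TPM with vehicle. The groups with and without rapamycin were far apart, and the loratadine tumors lay below the vehicle tumors. The mean was 46.2 ± 7.43 TPM with rapamycin and 217 ± 112 TPM without it (SD, n = 4 tumors each; log2 fold change -2.07, standard error 0.26, adjusted p = 0.0075). Slc2a3 (GLUT3, a high-affinity transporter) was scarce, at 1.84 and 1.88 TPM with both drugs and 1.02 and 2.48 TPM with rapamycin alone, against 4.77 and 3.39 TPM with loratadine alone and 1.88 and 4.43 TPM with vehicle. These groups overlapped and the test was not passed (log2 fold change -0.70, standard error 0.27, adjusted p = 0.10), although it was with array weights (adjusted p = 0.014) and with quantile normalization (adjusted p = 0.035). Among Slc2a1, Slc2a3, Slc2a6 and Slc2a8, Slc2a1 held 48.6 to 65.1% of the TPM with rapamycin and 79.5 to 96.2% without it. Slc2a6, a transporter of internal membranes, held 16.9 to 38.5% with rapamycin and 0.223 to 10.6% without it, but its own level did not pass the test (log2 fold change 1.40, standard error 0.69, adjusted p = 0.18).

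Both hexokinases fell, by smaller estimates than Slc2a1 and with calls that did not stand without each tumor. Hk1, the constitutive isoform on mitochondria, was at 85.1 and 107 TPM with both drugs and 96.1 and 103 TPM with rapamycin alone, against 155 and 103 TPM with loratadine alone and 199.5 and 204 TPM with vehicle. The groups overlapped at F3R and C1R, and the call (log2 fold change -0.71, standard error 0.18, adjusted p = 0.034) was lost without A3L, B1L, B3R, D1L, F5L or G3L (adjusted p = 0.066 to 0.096). Hk2, the inducible isoform, was at 46.5 and 30.0 TPM with both drugs and 47.0 and 49.8 TPM with rapamycin alone, against 75.6 and 85.4 TPM with loratadine alone and 259 and 89.0 TPM with vehicle. B1L stood apart from the other tumors without rapamycin, and all 4 with rapamycin lay below them (log2 fold change -1.36, standard error 0.32, adjusted p = 0.026). That call was lost without C1R, D1L, F3R or G3L (adjusted p = 0.051 to 0.073), while without B1L it stood. Hk2 held 52.5% of hexokinase TPM in B1L and 20.2 to 42.8% in the other 7 tumors, where Hk1 was the larger part. Gpi1, which converts glucose 6-phosphate to fructose 6-phosphate, was at 406 and 347 TPM with both drugs and 513 and 439.5 TPM with rapamycin alone, against 697 and 746 TPM with loratadine alone and 1227 and 908 TPM with vehicle. Its groups did not overlap and the order of treatments was the same as for Slc2a1 (log2 fold change -1.05, standard error 0.14, adjusted p = 0.0082).

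At the committing step the liver and platelet types of phosphofructokinase fell and the muscle type did not pass. Pfkp was at 104 and 112 TPM with both drugs and 70.1 and 115 TPM with rapamycin alone, against 205 and 185 TPM with loratadine alone and 261 and 237 TPM with vehicle, with no overlap between the groups (log2 fold change -1.15, standard error 0.19, adjusted p = 0.011). Pfkl fell by a similar amount (log2 fold change -1.16, standard error 0.21, adjusted p = 0.013) and ranged over 56.8 to 128 TPM with rapamycin and 114 to 256 TPM without it, where D1L exceeded both loratadine tumors. Pfkm, at 18.1 and 21.0 TPM with both drugs and 18.6 and 21.3 TPM with rapamycin alone, against 22.6 and 22.2 TPM with loratadine alone and 20.3 and 28.6 TPM with vehicle, overlapped between the groups and its interval for the rapamycin difference ran from -0.57 to 0.11 on the log2 scale (log2 fold change -0.23, standard error 0.15, adjusted p = 0.29). Pfkm held 8.59 to 11.05% of phosphofructokinase TPM with rapamycin and 3.80 to 6.73% without it, while its own level did not pass.

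Of the enzymes that make and break fructose 2,6-bisphosphate, the activator of phosphofructokinase, Pfkfb3 fell and Pfkfb4 did not pass. Pfkfb3, whose kinase activity far exceeds its phosphatase activity, was at 14.0 and 10.3 TPM with both drugs and 8.18 and 20.8 TPM with rapamycin alone, against 23.0 and 22.9 TPM with loratadine alone and 48.5 and 36.9 TPM with vehicle. All tumors with rapamycin lay below those without it, by little in the case of G3L (log2 fold change -1.25, standard error 0.30, adjusted p = 0.026). The call was lost without B1L or F5L (adjusted p = 0.070 to 0.072). Pfkfb4 was at 8.32 and 12.5 TPM with both drugs and 8.68 and 15.8 TPM with rapamycin alone, against 8.62 and 10.6 TPM with loratadine alone and 6.70 and 9.60 TPM with vehicle. Its highest value was in G3L and its estimate was above 0 but did not pass (log2 fold change 0.29, standard error 0.24, adjusted p = 0.41). Of the TPM of the 4 Pfkfb genes, Pfkfb3 held 24.6 to 44.2% with rapamycin and 47.8 to 71.8% without it.

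Aldolase and triose phosphate isomerase make and exchange the triose phosphates. Aldoa (chromosome 7 from 133938748 to 133944265 in mm9), which supplied over 98% of aldolase TPM in each tumor, was at 821 and 859 TPM with both drugs and 992 and 844 TPM with rapamycin alone, against 1640.1 and 1533 TPM with loratadine alone and 2582 and 2311 TPM with vehicle. These values left a wide gap between the groups, and loratadine tumors were again below vehicle tumors (log2 fold change -1.17, standard error 0.15, adjusted p = 0.0082). The second Aldoa row was at 1.28 and 0.950 TPM with both drugs and 1.498 and 0.871 TPM with rapamycin alone, against 0.897 and 2.18 TPM with loratadine alone and 1.91 and 2.41 TPM with vehicle, did not pass (log2 fold change -0.38, standard error 0.23, adjusted p = 0.26) and may share reads with the first. Aldoc, the brain type, was at 3.65 and 2.78 TPM with both drugs and 1.07 and 8.92 TPM with rapamycin alone, against 6.90 and 25.6 TPM with loratadine alone and 2.51 and 1.94 TPM with vehicle. Its highest value was in F3R and the groups overlapped widely (log2 fold change -0.65, standard error 0.66, adjusted p = 0.51). Tpi1 was at 381 and 295 TPM with both drugs and 490.0 and 374 TPM with rapamycin alone, against 784 and 1013 TPM with loratadine alone and 2515 and 1563 TPM with vehicle. It had the fourth largest fall of the members (log2 fold change -1.81, standard error 0.24, adjusted p = 0.0082), with both vehicle tumors above every other tumor.

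The 6 rows from Gapdh to pyruvate kinase summed to 3159 and 3515 TPM with both drugs and 3576 and 4101 TPM with rapamycin alone, against 6860.2 and 9790.0 TPM with loratadine alone and 16982 and 12894 TPM with vehicle. Of these 6, 5 fell and Eno2 did not pass. Gapdh, which oxidises glyceraldehyde 3-phosphate (ENSMUSG00000057666, chromosome 6 from 125111871 to 125116485 in mm9), was at 1286 and 1133 TPM with both drugs and 1533 and 1536 TPM with rapamycin alone, against 2983 and 3681 TPM with loratadine alone and 9523 and 5873 TPM with vehicle. Its mean was 1372 ± 198 TPM with rapamycin and 5515 ± 2942 TPM without it (SD, n = 4 tumors each; log2 fold change -1.87, standard error 0.24, adjusted p = 0.0078). Gapdh is often used as a constant standard, and its mean without rapamycin was 4.02 times that with it.

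Pgk1, which makes the first ATP of the pathway, is X-linked (chromosome X from 103382439 to 103399038 in mm9) and was at 292 and 290.2 TPM with both drugs and 410.5 and 362 TPM with rapamycin alone, against 719 and 1232 TPM with loratadine alone and 1589 and 1821 TPM with vehicle. The lowest tumor without rapamycin, B3R, was still well above the highest with it (log2 fold change -1.91, standard error 0.19, adjusted p = 0.0072). Pgam1, the mutase, was at 315 and 327 TPM with both drugs and 272 and 399.9 TPM with rapamycin alone, against 584 and 1073 TPM with loratadine alone and 1062 and 842 TPM with vehicle, and F3R was as high as the vehicle tumors (log2 fold change -1.41, standard error 0.22, adjusted p = 0.010). Pkm, pyruvate kinase of non-liver tissue, was at 578 and 908 TPM with both drugs and 584 and 999.6 TPM with rapamycin alone, against 1461 and 2012 TPM with loratadine alone and 2698 and 2339.8 TPM with vehicle. Within the rapamycin and both-drug pairs D1L and A3L were the lower tumors, and no tumor with rapamycin reached those without it (log2 fold change -1.48, standard error 0.24, adjusted p = 0.011). The table sums the M1 and M2 forms of Pkm, so the splice form was not measured here. Eno1, the ubiquitous enolase, fell too, with 679.6 to 852 TPM with rapamycin and 1105 to 2098 TPM without it (log2 fold change -1.14, standard error 0.20, adjusted p = 0.012). Eno2, the neuronal enolase, was at 8.43 and 4.97 TPM with both drugs and 6.49 and 5.54 TPM with rapamycin alone, against 7.56 and 6.45 TPM with loratadine alone and 11.7 and 8.83 TPM with vehicle, and its tumors overlapped (log2 fold change -0.38, standard error 0.22, adjusted p = 0.25). Eno1 held over 96% of enolase TPM and Pkm at least 98.0% of pyruvate kinase TPM in each tumor. Several of these enzymes have near-identical gene copies that could take part of their reads. The 11 copies listed in the table summed to 2.19 to 5.67 TPM per tumor, and adding them to their parent genes left 23 calls.

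**Figure D4:**
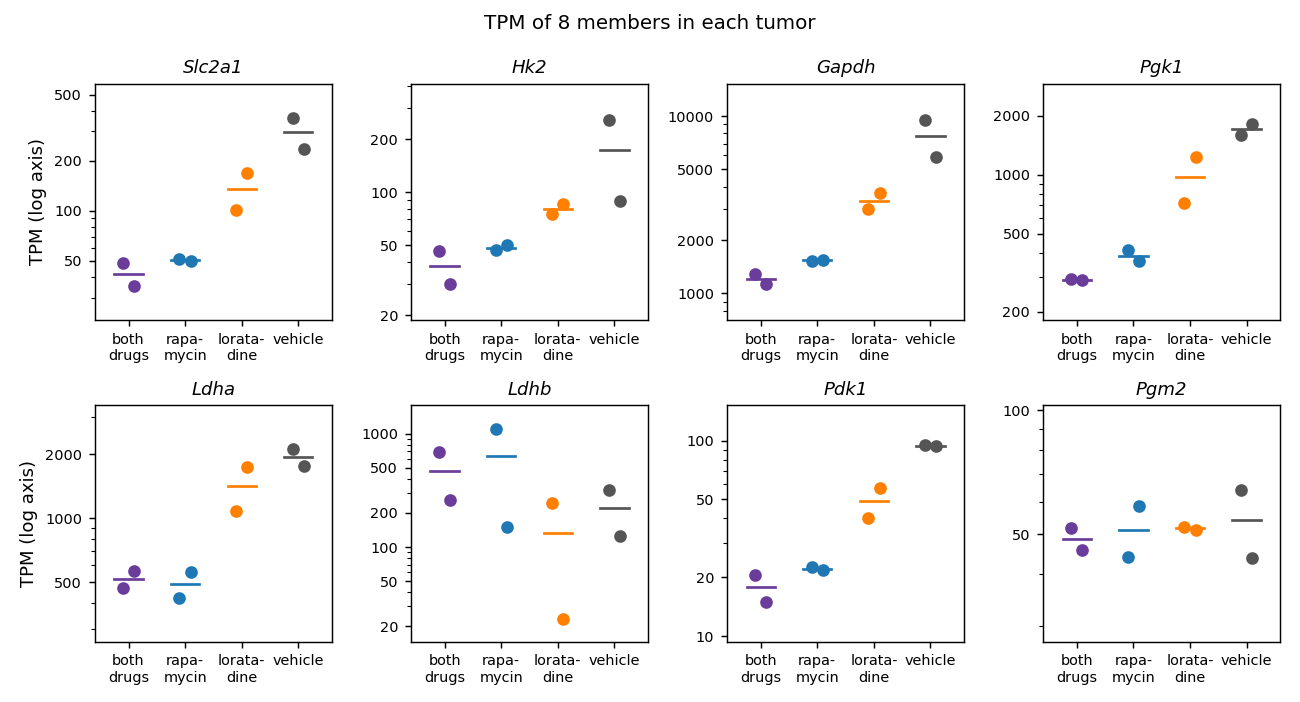
Points are single tumors and short lines the mean of the 2 tumors of a treatment, in TPM on a log axis that differs between panels. Slc2a1, Gapdh, Pgk1, Ldha and Pdk1 are lowest with both drugs or rapamycin, between with loratadine and highest with vehicle, Hk2 is high in 1 vehicle tumor, and Ldhb and Pgm2 overlap between treatments.

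In lactate production, the isoform that favours lactate fell and the other passed in neither direction. Ldha was at 471 and 563 TPM with both drugs and 420.3 and 557 TPM with rapamycin alone, against 1086 and 1747 TPM with loratadine alone and 2116 and 1750.2 TPM with vehicle. Its groups did not overlap, and F3R reached the level of a vehicle tumor (log2 fold change -1.70, standard error 0.21, adjusted p = 0.0077). Ldhb, whose subunit favours the turn of lactate into pyruvate, was at 687 and 258 TPM with both drugs and 1108 and 149 TPM with rapamycin alone, against 245 and 23.4 TPM with loratadine alone and 319 and 125 TPM with vehicle. D1L and A3L were far above G3L and C1R, so tumors of one treatment differed by more than the treatments did, and the test was not passed (log2 fold change 1.73, standard error 0.89, adjusted p = 0.19, 95% interval -0.31 to 3.78). With array weights, which give tumors far from the model less weight, the estimate was 2.33 with an adjusted p = 0.034. Those weights ran from 0.318 for G3L to 5.41 for A3L, so that fit leaned most on A3L. As a share of lactate dehydrogenase TPM, Ldhb held 59.3 and 31.4% with both drugs and 72.5 and 21.1% with rapamycin alone, against 18.4 and 1.32% with loratadine alone and 13.1 and 6.68% with vehicle. The shares did not overlap between tumors with and without rapamycin, although the levels of Ldhb did. The proton-linked carriers both fell: Slc16a1 (MCT1) ranged over 15.7 to 40.7 TPM with rapamycin and 49.2 to 99.4 TPM without it (log2 fold change -1.36, standard error 0.32, adjusted p = 0.024), a call lost without A3L, B1L, B3R or F5L (adjusted p = 0.050 to 0.072). Slc16a3 (MCT4, the carrier of cells that export much lactate) was at 3.996 and 3.77 TPM with both drugs and 5.27 and 6.57 TPM with rapamycin alone, against 7.23 and 22.4 TPM with loratadine alone and 19.5 and 23.6 TPM with vehicle. B3R was close to the rapamycin tumors (log2 fold change -1.61, standard error 0.31, adjusted p = 0.015), and the call was lost without F5L (adjusted p = 0.051).

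Pdk1, which phosphorylates pyruvate dehydrogenase and so limits the conversion of pyruvate to acetyl-CoA, was at 20.6 and 14.99 TPM with both drugs and 22.5 and 21.8 TPM with rapamycin alone, against 40.3 and 57.5 TPM with loratadine alone and 94.6 and 94.1 TPM with vehicle. Tumors with rapamycin, with loratadine alone and with vehicle formed levels that did not overlap, and the fall for rapamycin was well outside the spread (log2 fold change -1.72, standard error 0.19, adjusted p = 0.0072). The sister kinase Pdk2, no member of the set, was at 37.1 and 24.0 TPM with both drugs and 40.9 and 27.6 TPM with rapamycin alone, against 23.8 and 11.5 TPM with loratadine alone and 11.3 and 15.1 TPM with vehicle, which is a rise (log2 fold change 1.05, standard error 0.27, adjusted p = 0.034). Pdk4 fell (log2 fold change -1.14, standard error 0.33, adjusted p = 0.048), with 3.22 to 6.25 TPM with rapamycin and 5.61 to 21.3 TPM without it. Of the TPM of the 4 kinases, Pdk1 held 22.8 to 33.9% with rapamycin and 42.3 to 64.6% without it, and Pdk2 held 36.6 to 45.1% with rapamycin and 7.21 to 25.0% without it.

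Phosphoglucomutase links glucose 6-phosphate to glycogen. The 2 members carry names that were exchanged between annotations: Pgm1 of the table (ENSMUSG00000025791, chromosome 4) is called Pgm2 in the mm9 annotation, and Pgm2 of the table (ENSMUSG00000029171, chromosome 5) is called Pgm1 there. The one on chromosome 4 ranged over 18.5 to 23.8 TPM with rapamycin and 38.7 to 71.5 TPM without it and fell (log2 fold change -1.41, standard error 0.17, adjusted p = 0.0074). The one on chromosome 5 was at 51.8 and 45.7 TPM with both drugs and 44.1 and 58.5 TPM with rapamycin alone, against 52.1 and 51.4 TPM with loratadine alone and 64.2 and 44.0 TPM with vehicle. It overlapped in all 4 treatments, with an interval for rapamycin from -0.43 to 0.28 (log2 fold change -0.08, standard error 0.15, adjusted p = 0.75). The gene on chromosome 4 thus held 24.0 to 35.0% of the pair with rapamycin and 42.6 to 61.9% without it.

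**Figure D5:**
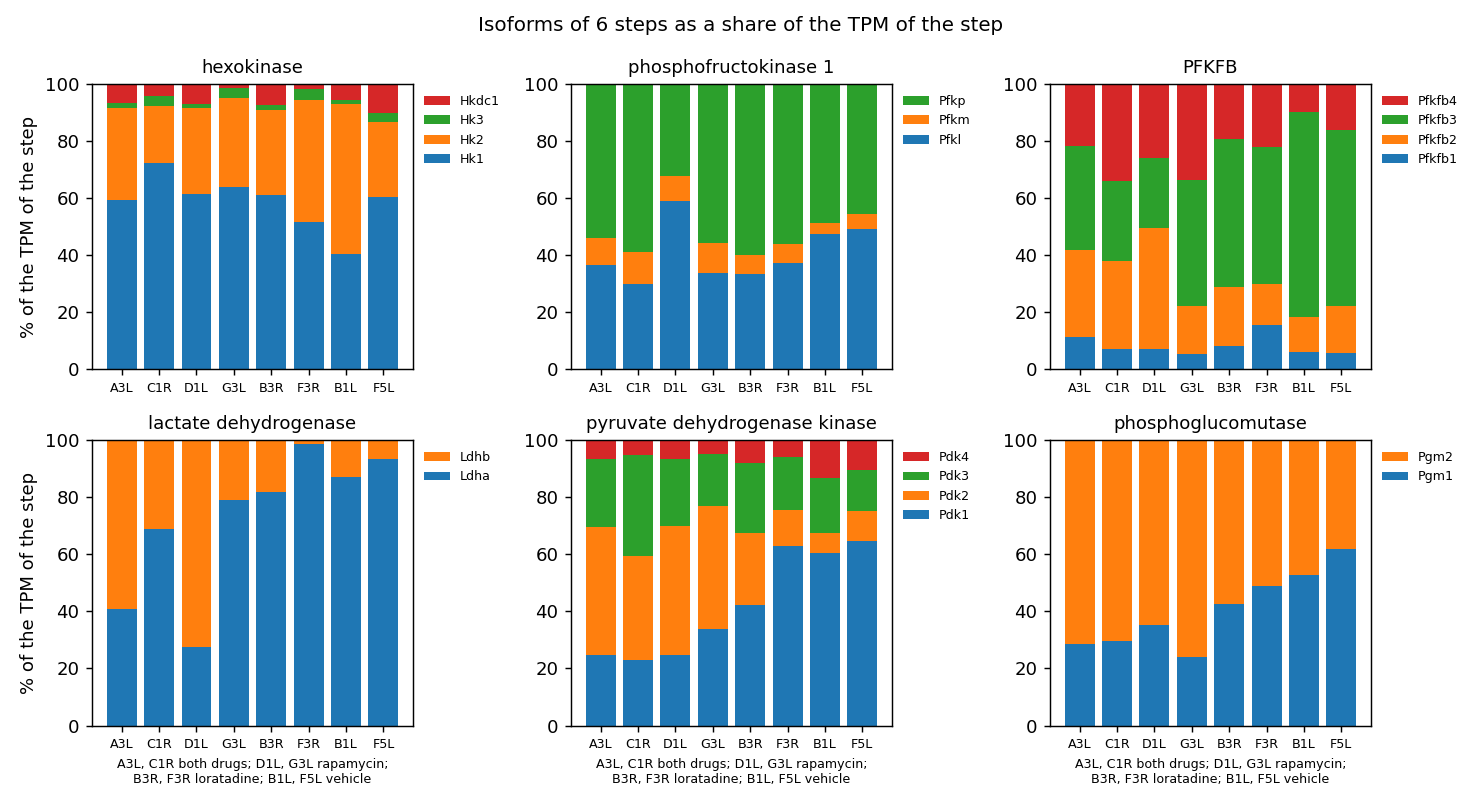
Stacked bars give each isoform as a percent of the TPM of its step in each tumor, for isoforms that reach 1% somewhere. Ldhb, Pdk2 and Pgm2 take larger shares in the 4 tumors with rapamycin (A3L, C1R, D1L, G3L) than in the 4 without it, and the hexokinase shares overlap.

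The pentose phosphate genes had smaller estimates than the glycolytic genes. Of 7 genes, 4 fell and 0 rose, with a median log2 fold change of -0.55, against -1.17 for the other 27 rows, and the difference between these medians was not tested. In the oxidative arm, G6pdx, the entry enzyme that makes NADPH, was at 48.4 and 57.2 TPM with both drugs and 72.7 and 52.1 TPM with rapamycin alone, against 85.8 and 93.8 TPM with loratadine alone and 60.1 and 142 TPM with vehicle. F5L was the highest and B1L was within the range of the tumors with rapamycin, and the test was not passed (log2 fold change -0.67, standard error 0.26, adjusted p = 0.097). It was passed with array weights (adjusted p = 0.019), without B1L (adjusted p = 0.035) and with median-of-ratios scaling (adjusted p = 0.044). H6pd, another enzyme of this step and no member of the set, rose (log2 fold change 0.69, standard error 0.18, adjusted p = 0.035). Its mean was 118 TPM with rapamycin and 73.1 TPM without it, and the groups overlapped at G3L and B3R. Pgls, the lactonase, was at 124 and 111 TPM with both drugs and 86.2 and 144 TPM with rapamycin alone, against 146 and 160.4 TPM with loratadine alone and 124 and 108 TPM with vehicle and did not pass (log2 fold change -0.22, standard error 0.17, adjusted p = 0.40). Pgd, which makes the second NADPH, was at 106 and 122 TPM with both drugs and 109 and 136 TPM with rapamycin alone, against 175 and 243 TPM with loratadine alone and 138 and 229.9 TPM with vehicle. Its groups were adjacent but did not overlap, and the call (log2 fold change -0.70, standard error 0.20, adjusted p = 0.042) was lost without A3L, B3R, C1R, D1L, F3R or F5L (adjusted p = 0.062 to 0.12).

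In the non-oxidative arm, Tkt, the thiamine-dependent transketolase, was at 227 and 224 TPM with both drugs and 200.2 and 295 TPM with rapamycin alone, against 428 and 432 TPM with loratadine alone and 386 and 516 TPM with vehicle. It fell with no overlap (log2 fold change -0.90, standard error 0.15, adjusted p = 0.012), and this call stood without each tumor in turn. Taldo1, the transaldolase, ranged over 229.8 to 313 TPM with rapamycin and 341 to 461 TPM without it (log2 fold change -0.55, standard error 0.15, adjusted p = 0.037), and Rpe, the ribulose phosphate epimerase, over 21.4 to 30.4 TPM with rapamycin and 32.2 to 40.8 TPM without it (log2 fold change -0.51, standard error 0.15, adjusted p = 0.049), with no overlap in either. The Taldo1 call was lost without A3L, B3R, C1R, D1L, F3R or F5L (adjusted p = 0.065 to 0.099), and the Rpe call without any tumor but C1R (adjusted p = 0.065 to 0.13). Rpia, the isomerase that makes ribose 5-phosphate, was at 26.0 and 17.7 TPM with both drugs and 27.8 and 25.6 TPM with rapamycin alone, against 22.1 and 23.0 TPM with loratadine alone and 18.6 and 14.7 TPM with vehicle. It was highest in D1L and its estimate was above 0 without passing the test (log2 fold change 0.30, standard error 0.20, adjusted p = 0.32).

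With rapamycin alone against vehicle, 18 of 34 members fell and 0 rose (22 and 1 at an unadjusted p under 0.05), where 5.21% of all rows fell and 6.65% rose, with a median of -1.27 for the members. These pairs were tested from group means of 2 tumors each with a shared spread (4 residual degrees of freedom). The log2 fold change was -2.50 for Slc2a1 (standard error 0.31, adjusted p = 0.014), -2.28 for Gapdh (standard error 0.29, adjusted p = 0.014) and -1.99 for Ldha (standard error 0.28, adjusted p = 0.015). Without the vehicle tumor B1L 0 members passed and without F5L 7 did. With both drugs against vehicle, 19 fell and 0 rose (22 and 0 at an unadjusted p under 0.05), where 3.42% of all rows fell and 7.18% rose, with a median of -1.30. The log2 fold change was -2.79 for Slc2a1 (standard error 0.31, adjusted p = 0.011), -2.36 for Pdk1 (standard error 0.23, adjusted p = 0.0089) and -0.98 for Tkt (standard error 0.23, adjusted p = 0.043). This count was 1 without B1L, 9 without F5L, 0 without A3L and 6 without C1R. The 2 comparisons share their vehicle tumors.

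Loratadine, over 4 tumors against 4, changed 0 of 34 members by limma at an adjusted p under 0.05, as it did 0 of all rows (0%). At an unadjusted p under 0.05 there were 8 members, all with negative estimates, against 8.31% of all rows. These were Pfkl (-0.84, 95% interval -1.31 to -0.36), Gapdh (-0.76, -1.31 to -0.21), Tpi1 (-0.75, -1.31 to -0.20), Slc2a1 (-0.72, -1.31 to -0.13), Pdk1 (-0.64), Pgk1 (-0.63), Gpi1 (-0.44) and Aldoa (-0.37), on the log2 scale. The member median was -0.20 and that of all rows 0.10.

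For loratadine alone against vehicle, 0 of 34 members passed (0.0199% of all rows did), and 11 had an unadjusted p under 0.05, against 12.1% of all rows. Both loratadine tumors lay below both vehicle tumors in 19 of 34 members, against 14.9% of all rows. The log2 fold change was -1.17 for Gapdh (95% interval -1.85 to -0.50, adjusted p = 0.27), -1.16 for Slc2a1 (-1.89 to -0.42, adjusted p = 0.31) and -0.48 for Ldha (-1.15 to 0.18, adjusted p = 0.52). Aldoc had the highest estimate, 2.18 (0.28 to 4.07, adjusted p = 0.38). Of the tumors with codes in B the loratadine tumor was the lower one in 24 of 34 members, with a median log2 difference of -0.59, and of those in F in 27 of 34, with a median of -0.33. Cell type markers moved with the same split. Adipocyte markers, of which 0 of 11 passed for loratadine over 4 tumors against 4, summed to 803 and 529.9 TPM with loratadine alone and 104 and 113 TPM with vehicle. The 9 fibroblast and pericyte markers summed to 1414 and 943 TPM with loratadine alone and 548 and 417 TPM with vehicle, and the 9 T and NK cell markers to 30.6 and 18.9 TPM with loratadine alone and 7.09 and 6.71 TPM with vehicle. Erythroid markers were the other way, at 199.8 and 139.8 TPM with loratadine alone and 454 and 269.5 TPM with vehicle, as were mammary epithelium markers and hypoxia genes outside glycolysis, and the sums of the other 7 marker lists overlapped. The part of these markers in the member differences was not tested.

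Adding loratadine to rapamycin gave no member that passed, as no row did (0%), and 0 members had an unadjusted p under 0.05, against 2.38% of all rows. Both tumors with both drugs lay below both with rapamycin alone in 7 of 34 members, against 6.65% of all rows. The log2 fold change of both drugs over rapamycin alone was -0.29 for Slc2a1 (95% interval -1.03 to 0.44), -0.40 for Pgk1 (-1.03 to 0.22) and 0.09 for Ldha (-0.58 to 0.76), so changes within these bounds could not be told from 0 with 2 tumors a treatment. Adding rapamycin to loratadine gave 0 members and 0 rows (0%) past the threshold, with 18 members at an unadjusted p under 0.05, against 14.6% of all rows. In 27 of 34 members both tumors with both drugs lay below both with loratadine alone, against 20.7% of all rows, and the median log2 fold change was -0.88. It was -1.69 for Pgk1 (95% interval -2.31 to -1.07, adjusted p = 0.15) and -1.64 for Slc2a1 (-2.37 to -0.90, adjusted p = 0.17).

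Whether rapamycin acted differently in tumors with and without loratadine was tested as the interaction of the drugs. It gave 0 of 34 members past the threshold (0.00662% of all rows) and 0 at an unadjusted p under 0.05, against 4.76% of all rows. Of the member estimates 25 were positive and 9 negative, with a median of 0.49. The interaction was 0.86 for Slc2a1 (95% interval -0.17 to 1.90) and 0.83 for Gapdh (-0.13 to 1.79) on the log2 scale, intervals that hold 0 and are wide.

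Among 30 tested genes for other isoforms and partners of the same steps, 3 fell and 5 rose with rapamycin, with a median of 0.33. These shares are near those of all rows (7.88% lower and 12.0% higher), so the counts are no result about this list. The falls were those of Pdk4 (above), Bsg, the chaperone of the lactate carriers, at 599 to 978 TPM with rapamycin and 927 to 1788 TPM without it (log2 fold change -0.83, standard error 0.21, adjusted p = 0.030), and Pgm3, of amino sugar synthesis (log2 fold change -0.62, standard error 0.16, adjusted p = 0.031). Of the rises, Pklr, the liver and erythrocyte pyruvate kinase, was at 5.77 to 11.9 TPM with rapamycin and 0.820 to 4.61 TPM without it (log2 fold change 1.49, standard error 0.36, adjusted p = 0.028), Slc2a9, a urate transporter, at 2.24 to 6.89 TPM with rapamycin and 1.15 to 2.85 TPM without it (log2 fold change 1.14, standard error 0.32, adjusted p = 0.041), and Pdk2 is given above. The lists used here were chosen with results of these data known. They are described by counts, medians and the values of the single genes named, and no list was tested as a set.

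In pyruvate entry and the TCA cycle, 5 of 26 genes fell and 1 rose (median -0.34). That is 19.2% lower and 3.85% higher, against 7.88% and 12.0% of all rows. Idh3a, a subunit of NAD-dependent isocitrate dehydrogenase, was at 40.9 to 56.4 TPM with rapamycin and 72.3 to 116 TPM without it (log2 fold change -1.05, standard error 0.18, adjusted p = 0.012), Dlat, the acetyltransferase of the pyruvate dehydrogenase complex, at 24.3 to 35.3 TPM with rapamycin and 45.0 to 60.5 TPM without it (log2 fold change -0.83, standard error 0.16, adjusted p = 0.015), and Cs, citrate synthase, at 98.5 to 145 TPM with rapamycin and 139.5 to 252 TPM without it (log2 fold change -0.65, standard error 0.19, adjusted p = 0.046). Mpc2, a subunit of the mitochondrial pyruvate carrier, rose (log2 fold change 1.14, standard error 0.23, adjusted p = 0.017), with 254 and 181 TPM with both drugs and 208 and 157 TPM with rapamycin alone, against 129.7 and 66.8 TPM with loratadine alone and 97.3 and 74.0 TPM with vehicle. In glycogen metabolism 7 of 15 genes fell and 2 rose (median -0.47). That is 46.7% lower and 13.3% higher, so the share of rises was near that of all rows. Gbe1, the branching enzyme, was at 14.4 and 12.3 TPM with both drugs and 11.6 and 11.9 TPM with rapamycin alone, against 27.4 and 47.5 TPM with loratadine alone and 38.7 and 57.8 TPM with vehicle (log2 fold change -1.65, standard error 0.23, adjusted p = 0.0082). Gys1, the glycogen synthase of muscle and other tissues, was at 12.5 to 22.4 TPM with rapamycin and 36.4 to 83.2 TPM without it (log2 fold change -1.54, standard error 0.29, adjusted p = 0.014), and Ppp1r3b, which targets a phosphatase to glycogen, at 1.0005 to 1.44 TPM with rapamycin and 3.32 to 7.59 TPM without it (log2 fold change -1.501, standard error 0.22, adjusted p = 0.0090). Phkg2, a subunit of phosphorylase kinase, rose (log2 fold change 0.80, standard error 0.18, adjusted p = 0.022). Of 4 tested gluconeogenesis genes 0 passed (2 at an unadjusted p under 0.05). The branches of upper glycolysis had 2 falls (Sord and Gpd2) and 1 rise (Uap1) among 15. These are 13.3% and 6.67%, against 7.88% and 12.0% of all rows, so the counts are no result about this list.

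Of 12 tested regulators, 1 fell and 1 rose (8.33% each), near the shares of all rows (7.88% lower and 12.0% higher), so the values below are those of single genes. Hif1a, the oxygen-regulated subunit of HIF-1, was at 54.6 and 59.1 TPM with both drugs and 26.3 and 64.4 TPM with rapamycin alone, against 111 and 181 TPM with loratadine alone and 82.7 and 138 TPM with vehicle (log2 fold change -1.33, standard error 0.30, adjusted p = 0.022). All tumors with rapamycin lay below those without it. Txnip, which is induced by glucose and restrains glucose uptake, was at 407 and 395 TPM with both drugs and 544 and 437 TPM with rapamycin alone, against 204 and 229 TPM with loratadine alone and 72.8 and 195 TPM with vehicle (log2 fold change 1.46, standard error 0.34, adjusted p = 0.024). Its groups did not overlap either, in the other direction. The remaining 10 did not pass.

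Other transcripts moved with the same split, where 7.88% of all rows were called lower and 12.0% higher. All 12 proliferation genes fell (median -2.35), and their sum was 154 to 394 TPM with rapamycin and 808 to 1271 TPM without it. Of 14 hypoxia genes outside glycolysis 9 fell and 0 rose (median -0.85), with sums of 781 to 1041 TPM with rapamycin and 1308 to 2881 TPM without it. Of 8 blood endothelium markers 4 fell, with sums of 30.8 to 52.4 TPM with rapamycin and 61.0 to 86.9 TPM without it. In the other direction, 6 of 9 T and NK cell markers rose (33.9 to 99.5 TPM with rapamycin and 6.71 to 30.6 TPM without it), as did 4 of 9 fibroblast and pericyte markers (743 to 4231 TPM with rapamycin and 417 to 1414 TPM without it). Of 5 tested renal tubule markers only Pax8 rose. At 20.0% against 12.0% of all rows, this count is no result about that list (list sums of 181 to 496 TPM with rapamycin and 71.5 to 219 TPM without it). Erythroid markers, of which 0 of 5 passed (4 at an unadjusted p under 0.05), summed to 69.5 to 192 TPM with rapamycin and 139.8 to 454 TPM without it. Adipocyte markers, of which 0 of 11 passed, summed to 96.7 to 634 TPM with rapamycin and 104 to 803 TPM without it. Skeletal muscle fibre markers summed to 245 TPM in C1R and 11.005 to 30.6 TPM in the other 7 tumors, and without C1R 20 members were still called. Their part in the member differences was not tested, and in a bulk tumor fewer cells of a type and less RNA per cell cannot be told apart.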

How the data were processed

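RNA from 8 tumors of Tsc2-null 105K cells was compared by treatment, as the labels give it, with 2 tumors for each of both drugs, rapamycin, loratadine and vehicle. The authors deposited TPM per gene in a pair of tables equal to within 5e-07 TPM, of which the first was read. It lists 35539 rows, of which 9537 are at 0 in every tumor. The methods of the study name Kallisto on mm9 with tximport and Ensembl annotation, while the processing notes of the submitters list STAR 2.4.0f1, SAMtools 0.1.18 and bedtools, also with mm9, and which of them gave the values is not settled. Counts were not used here.

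The 15095 rows that reached 1 TPM in 2 or more tumors were tested as log2(TPM + 1) with limma 3.58.1 in R 4.3.3 (two-sided moderated test with a trend on the mean level, Benjamini-Hochberg adjusted over these rows, called at 0.05). This scale understates the change of genes with low TPM. The drug terms came from an additive model, and pairs of treatments and the interaction from 4 group means with 4 residual degrees of freedom. Whether the 2 tumors of a treatment came from separate animals is not given in the sources used here, so p-values measure the spread between these tumors.

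Tumor values are printed for the highest member of each step (by its mean over all 8 tumors), for the 10 largest changes with rapamycin and for every member that did not pass. Of the other lists up to 3 genes per direction with the largest change are named, if the higher arm averaged 5 TPM or more. Pdk4, Pdk2, Slc2a6, H6pd and the cell type markers beyond the lists' sums were named after their values were seen. One of the listed renal tubule markers is not reported here and was left out of its list. The members and lists were chosen with earlier results of these data known. Coordinates of genes are those of the NCBIM37 (mm9) annotation, which holds 33 of the 34 rows. Promoters are those of RefSeq on GRCm38.p6, since no promoter table on mm9 was used. The test was tested on simulated data. Alternatives were pseudocounts of 0.1 and 0.5, no filter, a mean of at least 5 TPM, other scalings, no trend, array weights, the second table, near-identical copies summed, omission of each tumor, group means, the last letter of the tumor code as a term and its first letter as a block. Python 3.11.15 and matplotlib 3.10.9 drew the figures.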

Additional observations from a re-analysis of the deposited data

Results flagged for a closer look

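Of the 68 groups of 4 tumors checked (34 rows with and without rapamycin), 2 held a tumor far from the others, both for Hk2, and chance flags about 1 group in 20. With rapamycin, C1R was the lowest at 30.0 TPM, against 46.5 to 49.8 TPM in the other 3 tumors. Without rapamycin, the vehicle tumor B1L was the highest at 259 TPM, against 75.6 to 89.0 TPM in the other 3.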

How the results depend on the processing

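Over all alternatives the members called for rapamycin were all lower, except that Ldhb was called higher with array weights (25 lower and 1 higher). The array weights were largest for A3L (5.41) and smallest for G3L (0.318). Leaving out 1 tumor gave 16 to 20 calls, no filter 16, no trend 20, the last letter of the tumor code as a term 18, group means 22, and both median-of-ratios scaling and quantile normalization 24. Median-of-ratios scaling moved the median of all rows by more than 0.1, to -0.03, where the member median was -1.26. Without both vehicle tumors the count was 0. Members that did not pass changed sign in 3 cases: Pgm2 was at 0.029 without vehicle tumor B1L and at 0.0023 without rapamycin tumor D1L (-0.19 to 0.029 when leaving out 1 tumor), and Rpia was at -0.067 without both vehicle tumors. For rapamycin alone against vehicle, no filter and array weights gave 9 members each, only those 2 treatments 4, and leaving out 1 tumor 0 to 16. For both drugs against vehicle, no filter gave 10 and leaving out 1 tumor 0 to 20. For loratadine, leaving out 1 tumor gave 0 to 1, the 1 being Pfkl without G3L (log2 fold change -1.06, adjusted p = 0.032). For the causes of these moves, fewer tumors or more rows tested are part of each alternative's construction, and no other cause was tested. With the first letter of the tumor code as a replicate block, loratadine alone against vehicle gave 0 members with 1 residual degree of freedom, and the deviations of tumors that share this letter had a correlation of -0.018. The other comparisons gave 0 members under each alternative run. Only 2 tumors per treatment and an unknown depth limit what could be detected.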
